A study of Mus musculus with 8 samples.

Results

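The levels of 8 genes of BET bromodomain readers and of regulators of histone removal, Brdt, Brd2, Brd3, Chd5, Chd4, Cdyl, Kat5 and Epc1, were followed across the maturation of the mouse testis. They were chosen by gene name and make up 8 of the 23983 genes in the table of expression values. Of these 23983 genes, 13901 had a mean of at least 1 FPKM over the libraries, all 8 chosen genes among them. FPKM is the number of sequenced fragments per kilobase of transcript, scaled to the depth of the library. RNA came from a piece of whole testis of C57BL/6J mice with no further genetic change or treatment named, from animals aged d12, d16 or d24 and from adults, with a single library per stage. The number of animals behind a library is not given in the sources used here. The samples are therefore whole tissue, in which the first round of spermatogenesis adds later cell types with age, and fewer cells of a type and less RNA per cell cannot be told apart.

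Most histones are removed from the chromatin of elongating spermatids and replaced first by transition proteins and then by protamines, which pack the sperm genome. The histones are heavily acetylated before they leave. BET proteins bind acetylated histones through a pair of bromodomains, and BRDT, the BET protein of male germ cells, is known to bind hyperacetylated histone H4 and to compact such chromatin. BRD2 and BRD3 are relatives of it found in most tissues. CHD5 is an ATP-dependent remodeler known for its role in spermatids, and CHD4 and CHD3 are the related ATPases of the NuRD complex, which joins remodeling to histone deacetylation. CDYL is a chromodomain protein that binds methylated histone H3. KAT5, also called TIP60, is the acetyltransferase of the NuA4 complex, and EPC1 is the subunit that links it to the nucleosome.

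Because each stage has 1 library, no value below carries a spread between animals and no test of a stage was possible. Ranges in parentheses are 95% intervals that follow from the fragments counted, and they cover counting error only. Where a gene has several curated transcripts, the shortest was used to count fragments, which gives the widest interval. A change is called at 2-fold on the scale of log2(FPKM + 0.1) and is read beside the share of all 13901 genes past the same fold. One fragment per kilobase was worth from 0.0455 FPKM at d24 to 0.112 FPKM in the adult. This worth holds both the depth of a library and its scaling, which is not given, so it does not rank the libraries by depth. The deposited FPKM summed to 283580, 307964, 472726 and 659202 in the order of age. The scale between libraries therefore matters, and results that turn on it are given both ways. Shares and ratios of genes within 1 library do not depend on that scale.

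The 8 genes lie on different chromosomes, and positions are given in GRCm38.p6 from the RefSeq annotation. Brdt lies on the plus strand of chromosome 5 (chr5:107331194-107387058) and has 2 curated transcripts of 1588 and 4710 bases. Chd5 lies on the plus strand of chromosome 4 (chr4:152338651-152390194) and has 3 transcripts of 9359 to 9486 bases. Chd4 lies on the plus strand of chromosome 6 (chr6:125095981-125130591) and has 2 transcripts of 6438 and 6697 bases. Brd2 (chr17:34112019-34122607, minus strand) and Brd3 (chr2:27445581-27475673, minus strand) have 3 transcripts each. Cdyl (chr13:35659862-35874064, plus strand) has 5 and Kat5 (chr19:5603014-5610094, minus strand) has 8. In 7 of the 8 genes no stretch of 50 bases, the length of 1 read, was shared with a curated transcript of another gene, so paralogs such as Brdt and Brd2, or Chd5 and Chd4, are separated by the reads.

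The promoters of Brdt and Chd5, known for their roles in male germ cells, and of Chd4, the general paralog of Chd5, are shown for comparison. Each runs from 250 bases before to 50 bases after the RefSeq transcript start that lies farthest 5′, with CpG dinucleotides in capitals, on the plus strand at chr5:107330944-107331243 for Brdt, chr4:152338401-152338700 for Chd5 and chr6:125095731-125096030 for Chd4.
Brdt: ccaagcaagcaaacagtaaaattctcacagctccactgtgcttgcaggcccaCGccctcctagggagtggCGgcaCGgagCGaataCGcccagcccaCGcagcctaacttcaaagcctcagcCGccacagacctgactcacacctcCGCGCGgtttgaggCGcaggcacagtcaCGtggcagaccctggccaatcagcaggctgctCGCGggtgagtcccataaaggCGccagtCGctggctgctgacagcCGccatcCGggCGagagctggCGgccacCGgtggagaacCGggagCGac
Chd5: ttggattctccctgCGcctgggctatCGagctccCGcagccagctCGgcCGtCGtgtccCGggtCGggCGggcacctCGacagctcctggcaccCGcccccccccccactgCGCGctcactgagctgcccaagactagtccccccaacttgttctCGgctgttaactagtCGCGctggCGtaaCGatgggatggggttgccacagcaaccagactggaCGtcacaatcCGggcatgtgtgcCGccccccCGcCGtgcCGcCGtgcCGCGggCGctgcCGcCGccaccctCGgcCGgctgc
Chd4: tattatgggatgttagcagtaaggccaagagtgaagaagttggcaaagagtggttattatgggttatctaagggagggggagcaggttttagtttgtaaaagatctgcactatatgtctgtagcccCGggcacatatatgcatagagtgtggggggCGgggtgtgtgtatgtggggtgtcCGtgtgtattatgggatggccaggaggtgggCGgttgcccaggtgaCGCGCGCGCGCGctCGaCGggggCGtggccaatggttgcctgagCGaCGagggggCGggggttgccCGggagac

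CpG dinucleotides, frequent in promoters of widely active genes, were common in the promoters of both testis genes and of most of the others. Brdt had 23, Chd5 had 32 and Chd4 had 17, beside a median of 13 over 20303 RefSeq promoters of the same length. Of these promoters, 72.4% had at most as many as Brdt, 88.4% at most as many as Chd5 and 58.9% at most as many as Chd4. A second Chd4 start in RefSeq had 29, more than Brdt, so these counts do not set the testis genes apart from the general paralog. Brd3 had 46. Brd2 had 32 at the 5′-most start and 24 and 14 at others, and Kat5 had 19 and 29. The 5′-most Cdyl start had only 3, whereas the other 2 Cdyl starts had 32 and 34, so this gene has promoters of both kinds. Letters of known motifs were searched on both strands of the 7 promoters, 1 per gene, that were found in the table. The cyclic AMP response element TGACGTCA, a motif of many spermatid genes, was in none of the 7 and in 2.31% of all promoters. TATAAA was in none and in 12.1% of all. CCAAT was in Brdt, Chd4 and Kat5 and in 38.0% of all promoters. CAACNG, the core letters bound by MYB factors, occurred in Chd4 among the 7, in 2 further Cdyl starts and in 33.7% of all. A match or its absence describes the letters of this window and says nothing of the factor.

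Brdt was the one of the 3 BET genes, Brdt, Brd2 and Brd3, whose level changed most. It stood at 22.9 FPKM (20.9 to 25.1) at d12, 95.2 (90.9 to 99.5) at d16, 236 (231 to 241) at d24 and 318 (309 to 327) in adult testis. Every stage was above the one before and no pair of intervals overlapped. Brdt was 4.15-fold higher at d16 than at d12 (3.75 to 4.61), and it was the only one of the 8 genes called in this step, in which 12.6% of all genes were at least 2-fold higher and 3.67% at least 2-fold lower. From d16 to d24 it was 2.48-fold higher (2.36 to 2.61), and from d24 to adult 1.35-fold higher (1.30 to 1.40). The whole span from d12 to adult was 13.9-fold (12.6 to 15.3), a log2 difference of 3.79. When the libraries were brought to equal FPKM sums, the steps were 3.82-fold, 1.62-fold and 0.965-fold, so the step to d16 stayed past 2-fold, the step to d24 did not, and the adult level, 208 FPKM on that scale, was just below the 215 of d24. By rank, which needs no scale, Brdt went from percentile 80.8 of the genes tested at d12 to percentile 96.4 at d16, 97.8 at d24 and 97.5 in the adult.

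**Figure D1:**
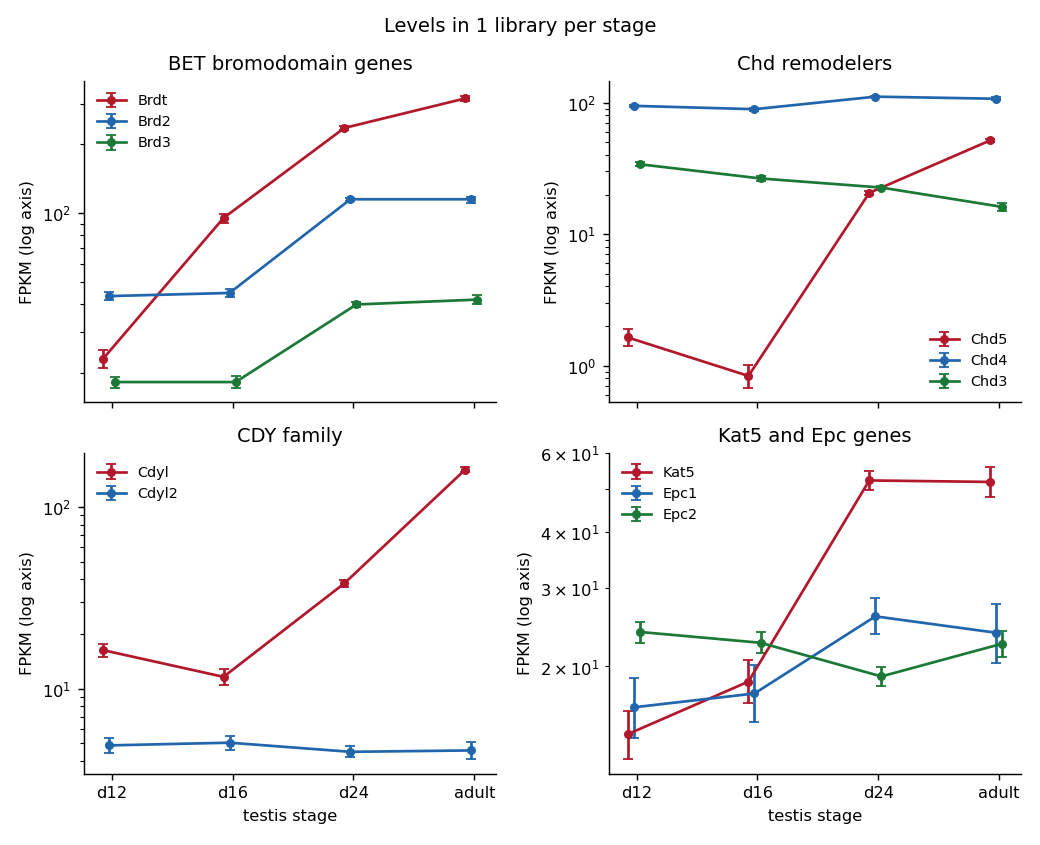
Level in FPKM (log axis) by testis stage for Brdt, Brd2 and Brd3, the Chd remodelers, the CDY family and Kat5 with the Epc genes. Each point is 1 library and the bars are 95% counting intervals. Brdt crosses above Brd2 between d12 and d16, and Chd5 crosses above Chd3 between d24 and adult.

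Brd2 and Brd3, the relatives expressed in most tissues, shared a later and smaller step. Brd2 was at 43.3 FPKM (41.6 to 45.1) at d12, 44.7 (42.9 to 46.5) at d16, 115 (113 to 117) at d24 and 115 (111 to 118) in the adult. Brd3 followed the same course at a lower level, with 18.2 FPKM (17.2 to 19.2), 18.2 (17.2 to 19.3), 39.8 (38.7 to 41.0) and 41.8 (39.9 to 43.7). Both were thus flat from d12 to d16 and flat again from d24 to adult, with overlapping intervals within each pair. The d24 level was 2.57-fold the d16 level for Brd2 (2.46 to 2.68) and 2.19-fold for Brd3 (2.05 to 2.34). This step depended on the scale. With equal FPKM sums it was 1.67-fold and 1.43-fold, neither past 2-fold, and the adult levels were 0.717 and 0.752 times those at d24.

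The balance of these 3 genes therefore shifted toward Brdt, and it did so mostly between d12 and d16. Brdt made up 27.2% of their summed FPKM at d12 (25.2 to 29.1), 60.2% at d16 (58.9 to 61.6), 60.4% at d24 (59.8 to 61.1) and 67.0% in the adult (66.2 to 67.9). Brd2 held the largest part at d12 with 51.3%, and it was down to 28.3% at d16, 29.4% at d24 and 24.2% in the adult. Brd3 went from 21.5% to 11.5%, 10.2% and 8.81%. Against Brd2 alone, Brdt stood at a ratio of 0.529 at d12 (0.478 to 0.585), 2.13 at d16 (2.00 to 2.26), 2.06 at d24 (2.00 to 2.12) and 2.77 in the adult (2.66 to 2.89). From d16 to d24 the 2 genes changed by like factors, and the ratio intervals overlap. The ratio of Brd2 to Brd3 moved far less, with 2.38, 2.46, 2.88 and 2.75.

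**Figure D2:**
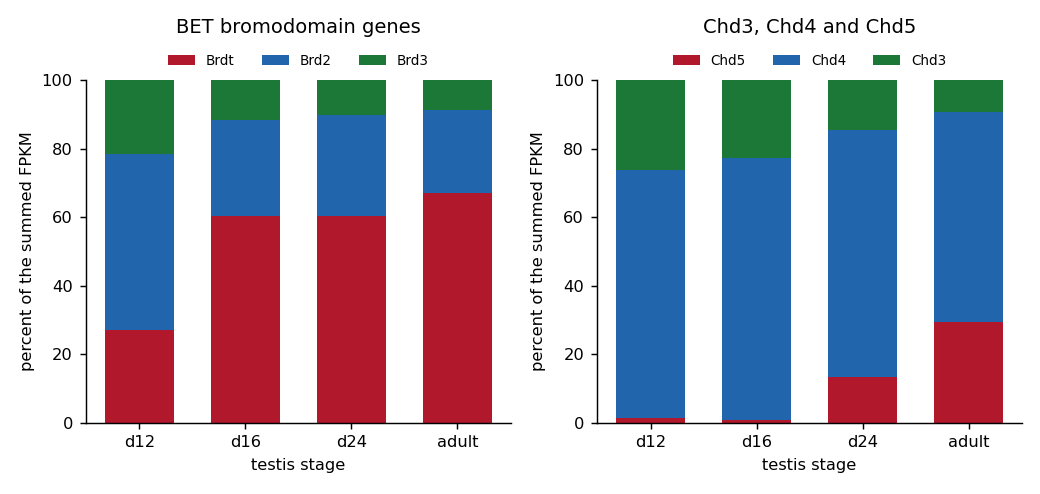
Percent of the summed FPKM within each library for Brdt, Brd2 and Brd3 (left) and for Chd3, Chd4 and Chd5 (right), by testis stage. The Brdt part widens from 27.2% at d12 to 60.2% at d16, while the Chd5 part widens only from d24, when it is 13.4%.

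Chd5 was the gene with the largest span of the 8. It was at 1.64 FPKM (1.42 to 1.89, from 192 fragments) at d12, 0.835 (0.680 to 1.02, from 98 fragments) at d16, 20.6 (from 4241 fragments) at d24 and 51.6 (50.1 to 53.2) in the adult. The lowest stage was d16, not d12. The d16 level was 0.510 times that at d12 (0.395 to 0.653), just short of a 2-fold decrease, and it passed 2-fold with equal FPKM sums (0.469 times) or upper quartiles. The d24 level was 24.7-fold that at d16 (20.2 to 30.5), a log2 difference of 4.47, and the adult level was a further 2.50-fold higher (2.40 to 2.61). With equal FPKM sums these steps were 16.1-fold and 1.79-fold. By rank, Chd5 moved from percentile 19.8 of the genes tested at d12 and percentile 10.2 at d16 to percentile 68.2 at d24 and 81.7 in the adult.

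Its relatives gave no such step. Chd4 was at 94.5 FPKM (92.4 to 96.7), 89.1 (87.1 to 91.2), 111 (110 to 113) and 107 (105 to 110) in the order of age, and no pair of stages differed by 2-fold. The adult level was 1.14 times that at d12 (1.10 to 1.17), close to the median shift of all genes, and 0.489 times with equal FPKM sums, which calls it lower, when the median of all genes also shifted by -1.0 on the log2 scale. Chd3 was at 34.0, 26.5, 22.6 and 16.1 FPKM, a steady decrease to 0.474 of the d12 level (0.442 to 0.509). Chd4 was the most abundant of the 3 remodelers in every library, with 72.6%, 76.6%, 72.0% and 61.3% of their summed FPKM. Chd5 made up 1.26% and 0.717% in the first pair of stages, then 13.4% at d24 and 29.5% in the adult, and Chd3 went from 26.1% to 9.20%.

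Within a library, the ratio of Chd5 to Chd4 was 0.0173 at d12 (0.0149 to 0.0200), 0.00937 at d16 (0.00760 to 0.0114), 0.185 at d24 (0.179 to 0.192) and 0.481 in the adult (0.463 to 0.500). Chd5 thus stayed below Chd4 at every stage. Against Chd3 the order turned. The ratio of Chd5 to Chd3 was 0.0482, 0.0316, 0.913 (0.873 to 0.954) and 3.21 (3.00 to 3.43), below 1 at d24 and above 1 in the adult.

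Cdyl was, like Chd5, lowest at d16 and highest in the adult. Its levels were 16.3 FPKM (14.9 to 17.7), 11.6 (10.5 to 12.8), 38.0 (36.5 to 39.6) and 161 (156 to 166). The step from d16 to d24 was 3.27-fold (2.94 to 3.64), and the step from d24 to adult was 4.23-fold (4.01 to 4.45). It was the largest of the 8 genes in that last step, in which 11.4% of all genes were at least 2-fold higher and 2.20% at least 2-fold lower. Both steps stayed past 2-fold with equal FPKM sums, at 2.13-fold and 3.03-fold. Its relative Cdyl2, another chromodomain gene of the CDY family, stayed between 4.48 and 5.03 FPKM as deposited. With equal FPKM sums the adult level of Cdyl2 was 0.404 times that at d12, when 49.9% of all genes were at least 2-fold lower. The ratio of Cdyl to Cdyl2 was 3.35, 2.32, 8.48 and 35.2 (31.4 to 39.5) in the order of age.

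Kat5 had a course near that of Brd2, but not from d12 to d16. In that step Kat5 was 1.32-fold higher (1.11 to 1.56), whereas Brd2 was flat. It was at 14.1 FPKM (12.4 to 15.9), 18.5 (16.6 to 20.7), 52.2 (49.7 to 54.8) and 51.8 (47.9 to 55.9), with its main step between d16 and d24 and no further gain in the adult. The step was 2.82-fold (2.50 to 3.18), or 1.83-fold with equal FPKM sums, when the adult level (33.8 FPKM) was below that of d24 (47.6 FPKM). Epc1, on the minus strand of chromosome 18 (chr18:6435951-6516108), has 3 transcripts of 834 to 3968 bases and shares 34 of its 4600 stretches of 50 bases, 0.739%, with the microRNA gene Mir1893, which is listed at 0 in all 4 libraries. Its level was much flatter than that of Kat5, at 16.2 FPKM (13.8 to 18.8), 17.4 (15.0 to 20.2), 25.9 (23.7 to 28.4) and 23.8 (20.4 to 27.6), and it was called in none of the steps. The enzyme and its anchoring subunit were thus at like levels early and not later. The ratio of Kat5 to Epc1 was 0.868 at d12 (0.711 to 1.06), 1.06 at d16 (0.885 to 1.28), 2.01 at d24 (1.82 to 2.23) and 2.17 in the adult (1.84 to 2.58). Epc2, the relative of Epc1, lay between 19.0 and 23.9 FPKM with no 2-fold change as deposited. With equal FPKM sums its adult level was 0.405 times that at d12, when 49.9% of all genes were at least 2-fold lower.

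Across the 8 genes, 6 were called higher from d16 to d24, when 27.5% of all genes were at least 2-fold higher and 8.45% at least 2-fold lower. These were Brdt, Brd2, Brd3, Chd5, Cdyl and Kat5. From d24 to adult only Chd5 and Cdyl were called higher, when 11.4% of all genes were. From d12 to adult 6 were again called higher, the same ones, beside 35.7% of all genes higher and 23.1% lower. None of the 8 was called lower in any pair of stages. The direction of calls rests on the scale, since 76.5% of all calls from d16 to d24 were higher as deposited, 57.8% after scaling by upper quartiles and 39.0% with equal FPKM sums. From d12 to adult the same shares were 60.7%, 42.3% and 31.7%. They were 77.5%, 66.8% and 66.9% from d12 to d16, and 83.8%, 67.8% and 39.9% from d24 to adult. The median of all genes from d12 to adult shifted by 0.20 on the log2 scale as deposited, by -0.45 with upper quartiles and by -1.0 with equal sums. From d16 to d24 it shifted by 0.13, -0.15 with upper quartiles and -0.48 with equal sums. With equal sums only Chd5 and Cdyl were called higher from d16 to d24, when 19.4% of all genes were, only Cdyl from d24 to adult, when 6.63% were, and only Brdt, Chd5 and Cdyl from d12 to adult, when 23.2% were.

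**Figure D3:**
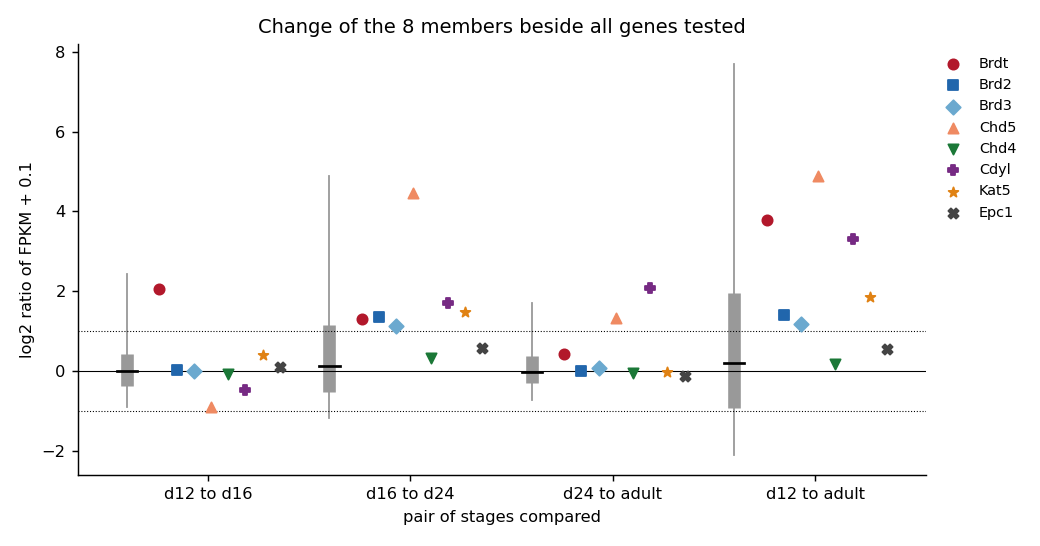
Log2 ratio of FPKM + 0.1 between stages for the 8 genes (symbols) beside all 13901 genes tested, drawn as the 25th to 75th percentile (box), the 5th to 95th percentile (line) and the median (black bar). Dotted lines mark 2-fold, and Chd5 stands highest of the 8 from d16 to d24 and Cdyl from d24 to adult.

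The partners of KAT5 in the NuA4 complex were read from a list of 18 genes that includes Kat5 and Epc1, all of them tested. From d12 to adult 9 of the 18 were at least 2-fold higher and 2 at least 2-fold lower, beside 35.7% and 23.1% of all genes, and the median log2 ratio was 0.98 against 0.20 over all genes. Scaled to equal FPKM sums, 2 were higher and 5 lower, beside 23.2% and 49.9% of all genes. The median log2 ratio was 0.46 from d12 to d16, against 0.00 over all genes, and 0.45 from d16 to d24, against 0.13. In the first of these steps 1 gene was called higher and none lower, beside 12.6% and 3.67% of all genes. In the second 6 were higher and 1 lower, beside 27.5% and 8.45% of all genes. None was called from d24 to adult, when 11.4% of all genes were at least 2-fold higher and 2.20% at least 2-fold lower. Morf4l1, a chromodomain subunit, was at 83.3, 149, 440 and 537 FPKM, 6.44-fold higher in the adult than at d12. Ruvbl2, an AAA+ ATPase of the complex, was at 16.8, 30.5, 102 and 104 FPKM, 6.21-fold higher. Both were well above their d12 level by d24. The adult level was 1.22 times that at d24 for Morf4l1 and 1.02 times for Ruvbl2 (0.961 to 1.08), or 0.875 and 0.731 times with equal FPKM sums. Meaf6 was 4.34-fold and the remodeling ATPase gene Ep400 3.25-fold higher in the adult than at d12. With equal FPKM sums these were 1.87-fold and 1.40-fold, neither past 2-fold. Morf4l2, the close relative of Morf4l1, went down over the same stages, from 193 to 139, 57.4 and 53.0 FPKM. Trrap, the large scaffold subunit, was at 20.1, 20.6 and 9.94 FPKM at d12, d16 and in the adult, 0.495 times the d12 level in the adult.

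The NuRD partners of CHD4 were flatter. Of 12 genes tested, 2 were at least 2-fold higher from d12 to adult and 2 at least 2-fold lower, beside 35.7% and 23.1% of all genes, with a median log2 ratio of 0.25, near that of all genes. On the scale of equal FPKM sums none was higher and 6 were lower, beside 23.2% and 49.9% of all genes. Hdac1, a histone deacetylase, was at 42.3, 59.9, 120 and 131 FPKM and thus 3.09-fold higher in the adult. Mbd3, a methyl-CpG-binding-domain protein gene, was at 19.4, 25.7, 48.8 and 46.8 FPKM, 2.41-fold higher. Both of these had reached their later level by d24. Hdac2, the paralog of Hdac1, was at 99.3, 91.7, 48.5 and 49.3 FPKM, 0.496 times in the adult. Rbbp7, a histone-binding subunit gene, was at 111, 90.6, 50.4 and 47.7 FPKM, 0.428 times.

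Another list held 14 other genes known from histone modification or removal, 13 of them tested, with Sirt6 below the mean of 1 FPKM. From d12 to adult 6 were at least 2-fold higher and 2 at least 2-fold lower, beside 35.7% and 23.1% of all genes, with a median log2 ratio of 0.55. With equal FPKM sums 3 were higher and 6 lower, beside 23.2% and 49.9% of all genes. Phf7, a histone ubiquitin ligase gene of spermatids, had the largest difference of the list, with 14.0, 181, 907 and 1181 FPKM. Like Brdt it was already far above its d12 level at d16, and it was 84.3-fold higher in the adult (75.4 to 94.5). Psme4, whose protein PA200 directs proteasomes to acetylated histones, was at 29.0, 43.5, 147 and 220 FPKM, 7.60-fold higher. Kat8, the acetyltransferase of histone H4 lysine 16, was at 11.9, 21.6, 73.2 and 103 FPKM, 8.66-fold higher. These 3 are also the 3 that stayed past 2-fold with equal FPKM sums. Kat8 outgrew Kat5, with a Kat5 to Kat8 ratio of 1.18, 0.858, 0.714 and 0.502. Rnf8, a ubiquitin ligase gene, was not called as deposited, with 25.7, 29.1, 25.1 and 17.0 FPKM. With equal FPKM sums its adult level was 0.284 times that at d12, past 2-fold lower. The ubiquitin ligase gene Huwe1 was at 60.3, 41.3, 20.5 and 18.1 FPKM and the deacetylase gene Hdac6 at 60.2, 39.5, 19.9 and 16.8 FPKM, both lower at each later stage.

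**Figure D4:**
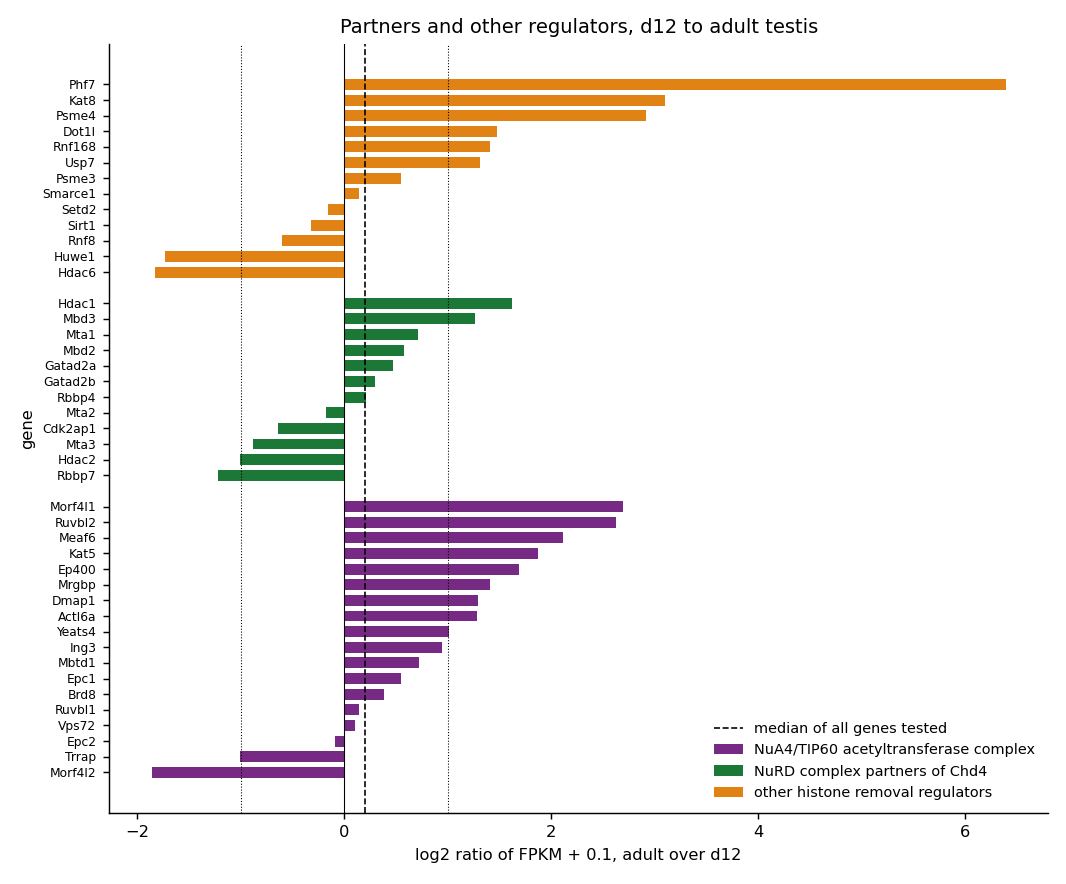
Log2 ratio of FPKM + 0.1 of adult over d12 testis for each tested gene of the NuA4 complex, of the NuRD partners of Chd4 and of other histone removal regulators. Bars start at 0, dotted lines mark 2-fold and the dashed line is the median of all genes tested, 0.20. Paralogs such as Morf4l1 and Morf4l2 or Hdac1 and Hdac2 lie on opposite sides of 0.

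The genes differed in when they reached their highest level, and the make-up of the tissue moved with them. Relative to its own highest stage, Brdt was at 7.21% at d12, 29.9% at d16 and 74.3% at d24. Brd2 was at 37.8%, 38.9% and 100%, and Kat5 at 26.9%, 35.5% and 100%. Rescaled to equal sums, Brdt, Brd2 and Kat5 were highest at d24, and Chd5 and Cdyl were still highest in the adult. Chd5 was at 3.17%, 1.62% and 40.0%, and Cdyl at 10.1%, 7.25% and 23.7%. Of these 5 genes, Brdt had the largest gain by d16 and Cdyl was the farthest from its adult level at d24.

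Lists of 6 marker genes each gave the cell types present. Pachytene spermatocyte markers, from cells in the long prophase of meiosis, summed to 49.6, 875, 3832 and 4559 FPKM. Round spermatid markers summed to 3.87, 72.2, 816 and 1498 FPKM, and elongating spermatid markers to 1.96, 1.80, 579 and 3707 FPKM. At d16 the pachytene markers had therefore come up and the sum of those of elongating spermatids had not. The round spermatid list was mixed at d16. Of its 6 genes 3 were called higher than at d12, with Spata16 at 57.5 FPKM against 0.974, while Acrv1 and Catsper3 were listed at 0. Sertoli cell markers, from the somatic cells that nurse the germ cells, went down from 95.5 to 69.8, 44.5 and 36.5 FPKM, with Amh listed at 0 in the adult. Spermatogonia markers summed to 134, 97.3, 80.9 and 67.4 FPKM, of which Uchl1 alone made up 94.7 FPKM at d12. This list was mixed too. From d12 to adult 4 of its 6 genes were called lower and 1 higher, beside 23.1% and 35.7% of all genes. The higher one was Id4, at 6.51-fold, or 2.80-fold with equal FPKM sums. Gfra1 went from 1.20 to 2.41 FPKM and was not called. Early meiotic markers summed to 581, 929, 589 and 580 FPKM, of which Sycp3 alone made up 795 FPKM at d16, whereas Stra8, Dmc1 and Prdm9 were highest at d12 and Spo11 in the adult. Leydig cell markers, from the steroid-making cells between the tubules, were at 132, 82.4, 153 and 581 FPKM. Of these 6 genes 3 were called higher from d12 to adult and none lower, beside 35.7% and 23.1% of all genes. Insl3 went from 17.5 to 273 FPKM and Cyp17a1 from 39.6 to 182 FPKM, whereas Star went from 18.8 to 15.1 FPKM. The part of these shifts in the levels of the 8 genes was not tested.

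The transition proteins and protamines, which take the place of the removed histones, came up between d16 and d24. Tnp1 was at 2.81, 0.563, 461 and 4147 FPKM and Prm1 at 3.39, 1.20, 517 and 6208 FPKM. The values at d12 and d16 rest on few fragments, 15 and 3 for Tnp1, 12 and 1 for Tnp2, 17 and 6 for Prm1, 36 and 18 for Prm2, and 6 and 1 for Prm3. The ratio of d16 to d12 was below 1 in all 5, but for Prm3 its interval, 0.00363 to 1.38, includes 1. The summed level of the 5 genes was 0.0522% of its adult value at d12, 0.0170% at d16 and 8.85% at d24. Brdt at 29.9% of its highest level at d16, and Chd5 and Cdyl at 40.0% and 23.7% at d24, were in each case ahead of that sum. So was every other chosen gene at both stages. At d16 Chd4 stood at 80.1%, Epc1 at 67.2% and Brd3 at 43.6% of their own highest level, and Chd5, the lowest, at 1.62%. Being ahead of so low a sum therefore does not set Brdt, Chd5 and Cdyl apart and gives no order of events. At d12 the markers of elongating spermatids stood at 0.0196% to 0.0899% of their adult level each, whereas Chd5 stood at 3.17% of its own.

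**Figure D5:**
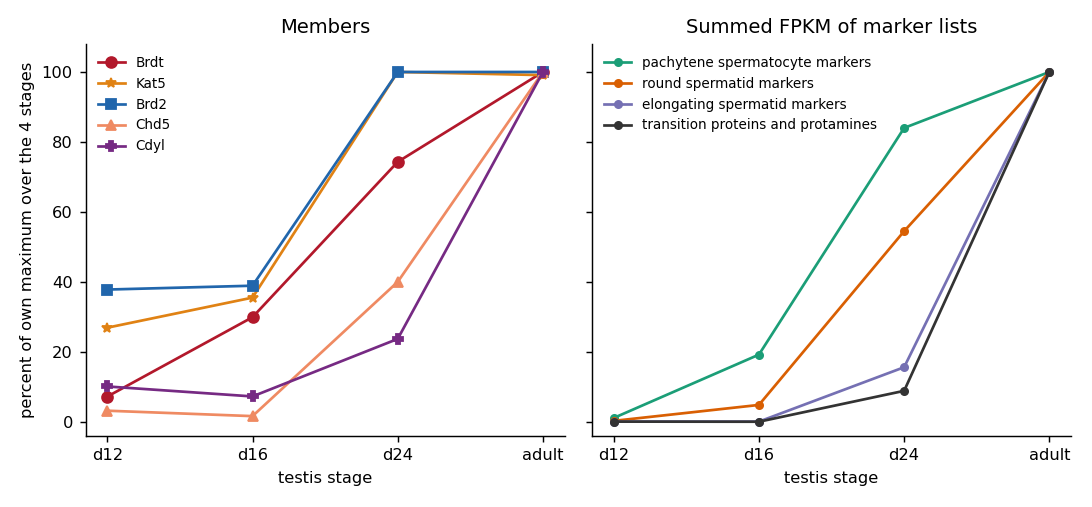
Level as percent of the highest of the 4 stages for Brdt, Kat5, Brd2, Chd5 and Cdyl (left) and for the summed FPKM of marker lists and of the transition proteins and protamines (right), 1 library per stage. As deposited, Brd2 and Kat5 are at 100% at d24, Brdt stands at 74.3%, and Chd5 and Cdyl stand at 40.0% and 23.7%. With equal FPKM sums, not drawn, Brdt, Brd2 and Kat5 are highest at d24.

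The profiles most like those of Brdt and Chd5 were sought among all genes tested, by the distance between centered log2 profiles over the 4 libraries. Nearest to Brdt were Tas1r1, Zfand4 and Itgb3bp at a distance of 0.10 each, then Crnde and Noxo1 at 0.14. Zfand4, for example, was at 6.40, 28.5, 70.9 and 88.5 FPKM, a course like that of Brdt at a lower level. Nearest to Chd5 were Celf3 at 0.16, Efcab12 at 0.26, Fam46c at 0.28, and Gm11240 and Actl10 at 0.33. Celf3, an RNA-binding protein gene, was at 0.220, 0.0979, 3.72 and 9.73 FPKM and thus also lowest at d16. Its d12 and d16 values lay below 0.240 FPKM, the worth of 3 fragments over 1 kb, so that low point is uncertain. Brdt and Chd5 themselves were not close to each other, at a distance of 3.05. Of all genes, 14.8% were as near to Chd5 as Brdt was, and 48.3% as near to Brdt as Chd5 was.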

How the data were processed

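Strand-specific RNA-seq of testis was analysed in 4 libraries, 1 per stage, assigned to stages from their labels. The 4 H3K27Ac ChIP samples were left out. What the authors deposited is a table of FPKM per gene. Per the study's methods and the submitters' processing notes, TopHat2 2.1.0 (using bowtie 1.1.2) placed the read pairs on GRCm38/mm10, and Cuffdiff (Cufflinks 2.2.1) gave the values over RefSeq genes. It corrected for bias and for reads with several positions but not for effective length. The scaling between libraries is not given in the sources used here, and it can move any change between stages.

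From the deposited FPKM values, ratios, shares and log2(FPKM + 0.1) differences were computed in python 3.11.15 (scipy 1.17.1, pandas 2.3.3, numpy 2.4.6). Genes whose mean reached 1 FPKM were tested against the 2-fold threshold. Fragments were recovered by dividing by the worth of a single fragment, set on 14603 genes with 1 curated transcript, where 92.0% to 92.7% of values of up to 20 fragments lay within 0.05 of a whole number. Intervals are exact Poisson for levels, Clopper-Pearson for ratios, and approximate for shares. For 1 kb of transcript, 3 fragments correspond to 0.240, 0.240, 0.137 and 0.337 FPKM. The computations were checked on simulated data.

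The members and lists were chosen with earlier results of these data known. Named genes are the 8 members, the genes of the lists and markers, and the 5 genes nearest to Brdt and to Chd5 by Euclidean distance. Promoters came from RefSeq on GRCm38.p6, where 7 of the 8 members were matched, Epc1 being the other. Alternatives were 3 other scalings (equal FPKM sums, upper quartiles, centering on the median), a pseudocount of 1, thresholds of 1.5-fold and 4-fold, other denominators and Pearson correlation. Shares of BET genes were taken over Brdt, Brd2 and Brd3, and another item of that sum is not reported here.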

Additional observations from a re-analysis of the deposited data

How the results depend on the processing

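Of the 32 differences of the 8 genes between stages, 26 moved past their counting interval with upper quartiles and 10 with centering on the median. Over the 3 other scalings and the pseudocount of 1, these differences had 128 alternative values. Of these, 65 moved past their counting interval with the sign of a called difference kept, and 62 stayed within it. The remaining 1 turned a difference called at 2-fold to the other sign. This was Brd3 from d12 to adult, at -0.02 on the log2 scale with equal FPKM sums. Only differences called at 2-fold could be counted as turned. Differences under 2-fold changed sign too. With equal sums these were Chd4 (-1.03) and Epc1 (-0.66) from d12 to adult, Chd4 (-0.30) and Epc1 (-0.04) from d16 to d24, Brdt (-0.05) and Brd3 (-0.41) from d24 to adult, and Brd2 (-0.07) and Epc1 (-0.02) from d12 to d16. With upper quartiles they were Chd4 (-0.48) and Epc1 (-0.11) from d12 to adult, Brd3 (-0.17) from d24 to adult, and Brd2 (-0.09) and Epc1 (-0.03) from d12 to d16. With centering they were Chd4 (-0.02) from d12 to adult and Kat5 (0.01) from d24 to adult. These lists leave out differences that round to 0.00 as deposited. Brd2 from d24 to adult was 0.02 with centering. Brd3 from d12 to d16 was -0.12 with equal sums and -0.13 with upper quartiles. With equal sums, the number of the 8 genes called higher was 2 from d16 to d24, 1 from d24 to adult and 3 from d12 to adult, and 1 was called lower from d12 to d16 (Chd5) and 1 from d12 to adult (Chd4). Of all genes, 5.78% were lower from d12 to d16 and 49.9% from d12 to adult on that scale. Chd5 was also the 1 gene called lower from d12 to d16 with upper quartiles, when 5.70% of all genes were, and at 1.5-fold. At 4-fold, 1 was called higher from d16 to d24, 1 from d24 to adult and 3 from d12 to adult. The shares of all genes past 1.5-fold and 4-fold were not computed, so these counts cannot be read as a result about the 8 genes. The 75th percentile of the log2 ratios of all genes was 1.147 from d16 to d24 and 0.379 from d24 to adult. From d12 to adult it was 1.964, just under 4-fold. From d12 to adult with equal sums, 2 NuA4 genes were higher and 5 lower, 0 NuRD partners higher and 6 lower, and 3 other regulators higher and 6 lower. Of all genes, 23.2% were higher and 49.9% lower. With upper quartiles, 5 NuA4 genes, 0 NuRD partners and 3 other regulators were higher, and 4 NuRD partners lower, beside 27.8% of all genes higher and 37.9% lower. With a pseudocount of 1, 1 NuA4 gene and 1 NuRD partner were lower, beside 18.5% of all genes. Without Brd2 the Brdt share was 55.8%, 83.9%, 85.6% and 88.4% at the 4 stages. The ratio of Chd5 to the sum of Chd3 and Chd4 was 0.0128, 0.00722, 0.154 and 0.418. By Pearson correlation, 2 of the 5 genes nearest to Brdt and 0 of those nearest to Chd5 were found again. The scaling alternatives change only 1 factor per library. No paired analysis was possible because each stage has 1 library. Depth limits Chd5 most, with 98 fragments at d16.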

Other observations

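Among the partner genes, paralogs of 1 complex changed places. These pairs were chosen after their values were seen. The ratio of Morf4l1 to Morf4l2, related genes of the NuA4 complex, was 0.432 at d12 (0.409 to 0.456), 1.07 at d16 (1.02 to 1.13), 7.66 at d24 (7.33 to 8.01) and 10.1 in the adult (9.42 to 10.9). The ratio of Hdac1 to Hdac2, the deacetylases of the NuRD complex, was 0.426 at d12 (0.396 to 0.458), 0.653 at d16 (0.611 to 0.697), 2.48 at d24 (2.36 to 2.61) and 2.65 in the adult (2.45 to 2.87). Both ratios were taken within a library and do not depend on the scale between libraries.

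Over the NuA4, NuRD and other regulator lists, 4 tested genes lie on the X chromosome, Morf4l2, Rbbp7, Huwe1 and Hdac6, and all 4 were at least 2-fold lower in the adult than at d12. Of 39 autosomal genes of the same lists, 2 were lower, Hdac2 and Trrap, and 17 were higher. Over all genes tested, 58.0% of 555 X-linked genes and 21.6% of 12416 autosomal genes were at least 2-fold lower. At equal FPKM sums, all 4 X-linked and 13 of the 39 autosomal genes of the lists were lower, beside 416 of the 555 X-linked and 6102 of the 12416 autosomal genes tested. This split was looked for after the values were seen.

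Some of the general genes had like profiles and others did not. Brd2 and Brd3 lay at a distance of 0.23, with 0.446% of all genes as near to Brd2 and 0.842% as near to Brd3. Brd2 and Kat5 lay at 0.39, with 2.36% of all genes as near to Brd2 and 2.35% to Kat5. Chd4 and Epc1 lay at 0.34, with 5.73% as near to Epc1 and 6.79% to Chd4. Chd4 and Brd2 lay at 1.13, with 47.7% of all genes as near to Chd4 but 24.6% to Brd2. Chd4 and Kat5 lay at 1.47, with 60.5% as near to Chd4 and 29.6% to Kat5. Epc1 and Kat5 lay at 1.14, with 42.2% as near to Epc1 and 19.8% to Kat5. The share thus depends on which gene of the pair it is counted from. Profiles of 4 points are described here with no test.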
